A study of Macaca mulatta with 12 samples.

Results

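The genes described here encode splicing factors and heterogeneous nuclear ribonucleoproteins (hnRNPs). They were taken by symbol, as every Ensembl macaque identifier whose symbol starts with SRSF and a digit, HNRNP, SF3A, SF3B, PRPF and a digit, SNRP or U2AF. Of 69 such identifiers in the reference, 60 had counts, out of 23993 genes in all, and the other 9 (HNRNPA1L2, HNRNPD, HNRNPUL2, SNRPA1, SNRPB2, SNRPD1, SNRPG, SRSF1 and SRSF3) were not analysed here. The 60 genes carry 58 symbols, since SNRPC and SNRPD2 each stand on a pair of identifiers, and their counts come from 136 transcripts. All 60 passed the filter on low counts. By role they are 10 SR proteins, 18 hnRNP proteins, 3 U2AF subunits, 8 SF3 subunits, 12 PRPF proteins, 6 Sm core proteins and 3 proteins specific to the U1 snRNP. These are counts of identifiers, here and below. Both identifiers of SNRPD2 are counted among the Sm core proteins, and both of SNRPC among the U1 proteins.

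RNA was sequenced from liver biopsies of 6 male rhesus macaques aged about 4.6 years, with no engineered allele. Very heavy drinkers (VHD, 3 animals) and light drinkers (LD, 3 animals) were each biopsied post-induction and at baseline, which gives 4 groups of 3 libraries. The induction lasted 90 days in 3 steps of 30 days, with daily ethanol of 0.5, 1 and 1.5 g per kg, and both classes drank the same amount in it. The classes name the drinking in the 12 months of free access that came afterwards, when VHD animals drank 4.0 g per kg daily and LD animals 1.5 g per kg daily. Baseline livers of both classes had therefore had none of the induction ethanol, and a post-induction liver differs from its baseline by ethanol, by time and by having been biopsied before, which cannot be told apart.

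Splicing removes introns from pre-mRNA and joins exons. The spliceosome that does it is built from small nuclear ribonucleoproteins (snRNPs). In each of most of these, a ring of Sm proteins sits on a small nuclear RNA. The U1 snRNP pairs with the start of an intron, U2AF binds the pyrimidine tract and the AG at its end, and the SF3A and SF3B complexes hold the U2 snRNP on the branch point. PRPF proteins belong to the U4/U6.U5 tri-snRNP, the U1 snRNP or the PRP19 complex. SR proteins carry an RNA-binding domain and a region rich in arginine and serine that is switched by phosphorylation, and they mostly favour the use of nearby exons. Proteins of the hnRNP class coat pre-mRNA and often act against SR proteins. Many SR and hnRNP genes are known to limit their own mRNA through exons that bring a premature stop and decay of the transcript.

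Library totals ran from 5970033 to 25060718 expected counts, and the 60 genes took 0.171 to 0.253% of a library. On components of all tested genes other than the 60, VHD post-induction 2 and VHD baseline 3 stood apart from the other 10 libraries on component 2 (20.6% of the variance). Component 1 (31.4%) had 5 libraries on its positive side (VHD post-induction 1 and 3, VHD baseline 2, LD post-induction 2 and 3) and 7 on the other. The first of these sides holds 4 of the post-induction libraries, so component 1 partly goes with time. Levels below are in CPM, the count relative to the library total after scaling by the TMM method. They depend on transcript length and are not compared between genes.

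The first question was how these genes differed between post-induction and baseline livers, taken as the mean of the VHD and LD responses. SRSF6, an SR protein, was the 1 gene of the 60 that passed an adjusted p of 0.05, and it was lower post-induction. Among all 18373 genes tested, 0.25% were called lower and 0.0163% higher. At an unadjusted p under 0.05, 9 of the 60 (15%) were lower, against 4.16% of all genes, and 0 were higher, against 3.76% (7.91% of all genes in either direction). The median log2 fold change was -0.07 over the 60 and 0.07 over all genes, and 38 of the 60 (63.3%) were negative, against 42.6% of all genes. The median over the 60 ranged from -0.20 to -0.035 with single libraries left out. In a bulk liver sample, fewer cells of a type and less RNA per cell cannot be told apart.

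The roles differed in their medians. All 10 SR proteins had a negative log2 fold change, with a median of -0.51 and a range of -1.61 to -0.06, and 4 of them had an unadjusted p under 0.05. The other 50 genes had a median of -0.04, with 28 negative. Medians were -0.23 for the 3 U2AF subunits, -0.15 for the 8 SF3 subunits, -0.11 for the 3 U1 proteins, -0.01 for the 12 PRPF proteins, 0.03 for the 18 hnRNP proteins and 0.06 for the 6 Sm core proteins. These medians were not tested against each other.

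**Figure D1:**
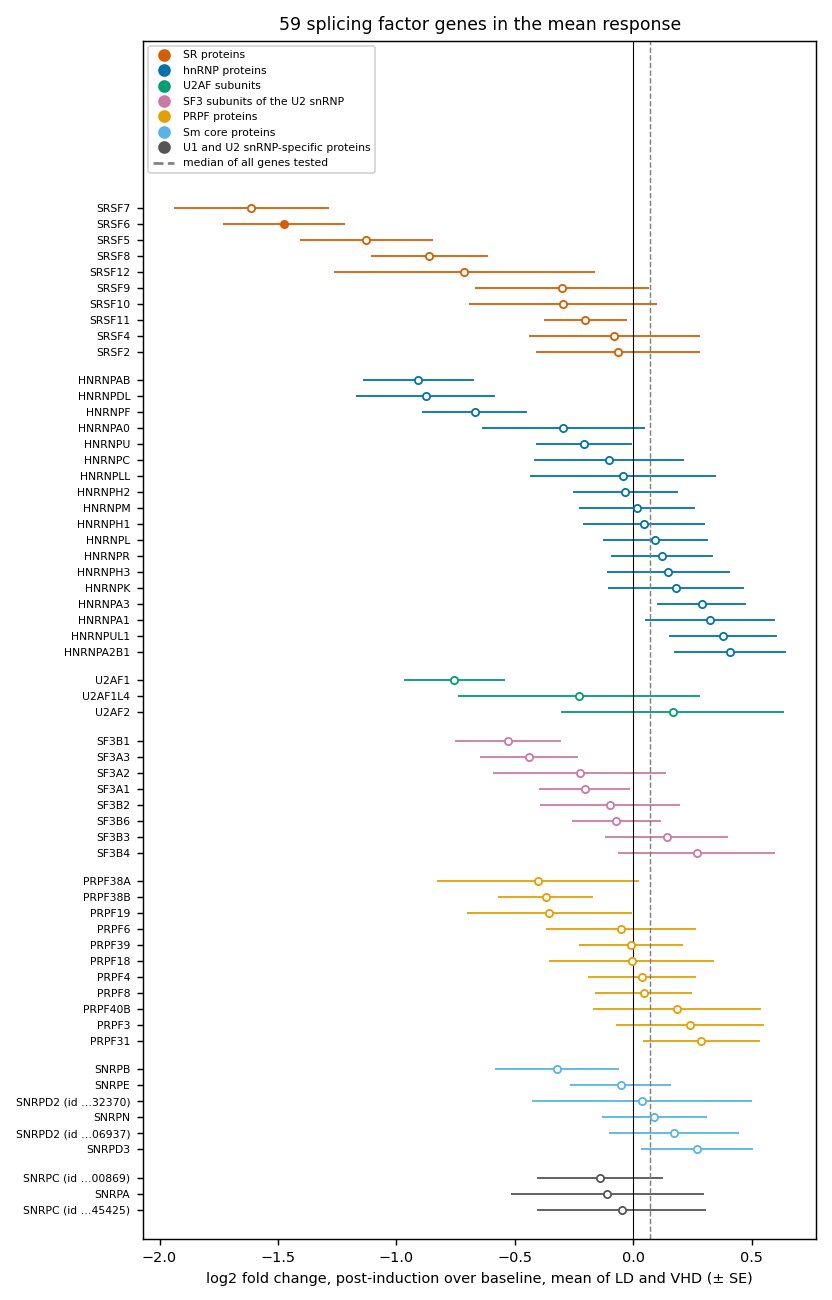
Log2 fold change of 59 of the 60 genes in the mean response (post-induction over baseline, mean of VHD and LD), as points with standard errors, ordered by role and by value. The filled point is SRSF6, the only gene past the adjusted threshold of 0.05, and all 10 SR proteins lie left of the line at 0, while the dashed line marks the median of all genes at 0.07.

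SRSF6, which binds exonic enhancers and promotes exon inclusion, is on the minus strand of chromosome 10, positions 21040070 to 21043224 (ENSMMUG00000006742, build Mmul_8.0.1). It stood at 19.5, 9.75 and 17.3 CPM in VHD post-induction livers, against 61.0, 49.6 and 31.1 CPM in VHD baseline livers. In LD livers it stood at 24.5, 14.7 and 15.6 CPM post-induction, against 40.8, 43.5 and 54.7 CPM at baseline. Every post-induction library was below every baseline library, and the level was lower in 6 of 6 animals. In edgeR's quasi-likelihood test SRSF6 fell by 1.47 on the log2 scale (± 0.26 SE, 2.78-fold, adjusted p = 0.0336), rank 31 of all genes by p.

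With a term for the animal the SRSF6 estimate was -1.49 ± 0.27 with an adjusted p of 0.105, and 0 of the 60 genes were called, where 0.0218% of all genes were called lower and 0 higher. Without VHD post-induction 2 and VHD baseline 3 it was -1.47 with an adjusted p of 0.0377. The call also held without LD post-induction 1 (adjusted p = 0.0351) and without VHD baseline 3 (0.0302). It was lost without any 1 of the other 10 libraries, although the estimate stayed between -1.57 and -1.35. The edgeR adjusted p was then 0.0649, 0.0536 and 0.0854 without VHD post-induction 1, 2 and 3, and 0.0848 and 0.0642 without VHD baseline 1 and 2. It was 0.146 and 0.107 without LD post-induction 2 and 3, and 0.0542, 0.0874 and 0.111 without LD baseline 1, 2 and 3. Over all genes, 0 to 42 were called in these 10 fits, against 49 with all 12 libraries.

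SRSF7, an SR protein with a zinc knuckle that also takes part in mRNA export, is on the minus strand of chromosome 13, positions 39222115 to 39229021 (ENSMMUG00000011025). It had 8.0, 6.57 and 2.89 CPM in VHD post-induction livers, against 24.6, 16.1 and 13.2 CPM in VHD baseline livers. LD livers had 11.4, 4.14 and 6.33 CPM post-induction, against 16.6, 20.9 and 28.4 CPM at baseline. The times did not overlap in either class or across them. The fitted log2 fold change was -1.61 ± 0.33 SE (3.06-fold lower), and the edgeR adjusted p of 0.0687 missed the threshold, with lower levels in 6 of 6 animals.

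SRSF5 favours exon inclusion and is known in rat liver as a gene of regeneration and insulin response. It lies on chromosome 7 (ENSMMUG00000022407, plus strand), and its main transcript runs from 131989089 to 131994964. It had 44.4, 67.5 and 27.5 CPM in VHD post-induction livers, against 69.6, 88.3 and 138 CPM in VHD baseline livers. In LD livers the levels were 46.2, 39.4 and 26.2 CPM post-induction, against 109 (LD1), 77.2 (LD2) and 64.9 (LD3) CPM at baseline. Each animal was lower post-induction, but VHD post-induction 2 lay above LD baseline 3. The fitted value was -1.13 ± 0.28 (edgeR adjusted p = 0.167).

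SRSF8, a primate gene related to SRSF2, had 20.6, 20.3 and 27.4 CPM in VHD post-induction livers, against 36.0, 65.2 and 33.6 CPM in VHD baseline livers. LD livers had 18.5, 38.4 and 31.1 CPM post-induction, against 43.4, 49.6 and 53.9 CPM at baseline. The times did not overlap within a class, and LD post-induction 2 lay above VHD baseline 1 and 3. The fitted value was -0.86 ± 0.25 (edgeR adjusted p = 0.261), with 6 of 6 animals lower. How reads that match both SRSF8 and SRSF2 were counted is not given in the sources used here, so the split between these genes is uncertain.

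**Figure D2:**
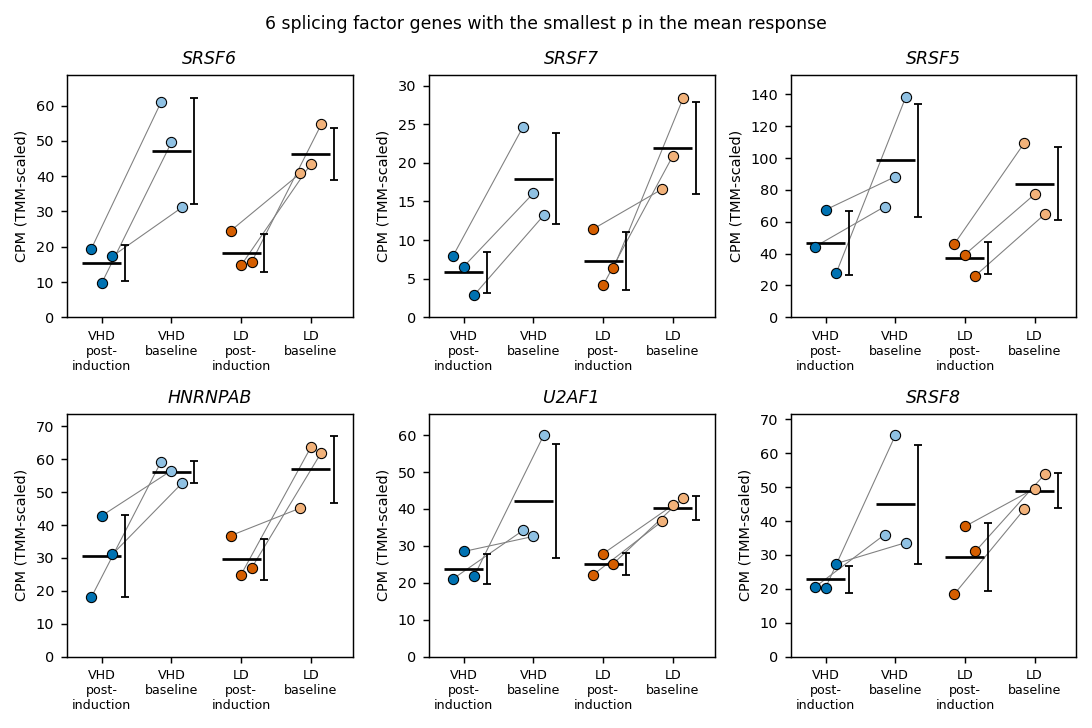
CPM of the 6 genes with the smallest p in the mean response, by group, with 1 point per library, a bar at the group mean, the SD beside it and grey lines that join the libraries of an animal. Every line has its lower end post-induction in all 6 genes, and SRSF6, SRSF7, HNRNPAB and U2AF1 have no post-induction library at or above any baseline library.

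The other SR proteins had wider errors relative to their values. SRSF12, which antagonises other SR proteins and was scarce here, was fitted at -0.71 ± 0.55 and lower in 4 of 6 animals. It had 0 counts in LD baseline 1, which allows up to 3 counts or 0.519 CPM there (counting error only). SRSF9 (-0.30 ± 0.37), SRSF10 (-0.30 ± 0.40) and SRSF11 (-0.20 ± 0.17), which act on exon choice, were lower in 4, 5 and 5 of 6 animals. SRSF4 (-0.08 ± 0.36) was lower in 3 of 6. SRSF2, which promotes exon inclusion and is mutated in human myeloid neoplasms, was fitted at -0.06 ± 0.35, with 4 of 6 animals lower. It had 3.59, 12.0 and 3.29 CPM in VHD post-induction livers, against 4.87, 6.03 and 8.11 CPM in VHD baseline livers. In LD livers it had 7.74, 4.98 and 5.27 CPM post-induction, against 7.79, 7.78 and 4.17 CPM at baseline. The highest of these libraries, VHD post-induction 2, is among the pair that stood apart on component 2.

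Among hnRNP proteins, 3 of 18 had an unadjusted p under 0.05, all lower post-induction. HNRNPAB, which binds both RNA and CArG-type DNA elements, is on the plus strand of chromosome 6, positions 176689601 to 176696575 (ENSMMUG00000003996). It had 18.1, 42.8 and 31.0 CPM in VHD post-induction livers, against 59.2, 56.6 and 52.7 CPM in VHD baseline livers. LD livers had 36.8, 24.96 and 26.9 CPM post-induction, against 45.2, 63.6 and 62.0 CPM at baseline. The times did not overlap, and the fitted value was -0.91 ± 0.23 (1.88-fold lower, edgeR adjusted p = 0.187).

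HNRNPF, which binds G-rich tracts, likewise had no overlap between times. Its 6 post-induction libraries ran from 71.3 to 135 CPM with a median of 114 CPM, against 149 to 187 CPM with a median of 169 CPM at baseline. The fitted value was -0.67 ± 0.22 (edgeR adjusted p = 0.375), with 6 of 6 animals lower.

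HNRNPDL, a relative of HNRNPD that binds AU-rich RNA, separated the times cleanly in LD livers, with 70.2, 61.9 and 68.7 CPM post-induction, against 116, 116 and 113 CPM at baseline. VHD livers had 64.0, 29.9 and 53.3 CPM post-induction, against 135, 115 and 39.0 CPM at baseline. VHD post-induction 2 and VHD baseline 3 were its lowest libraries. The fitted value was -0.88 ± 0.29 (edgeR adjusted p = 0.378), with 5 of 6 animals lower, and -0.94 without that pair.

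Other hnRNP genes lay on the positive side, none at an unadjusted p under 0.05. HNRNPA2B1, a reader of the m6A mark on RNA, averaged 297 ± 66.7 CPM in VHD post-induction livers and 231 ± 48.6 CPM in VHD baseline livers (SD, n = 3 each). In LD livers it averaged 313 ± 101 CPM post-induction and 228 ± 20.8 CPM at baseline (SD, n = 3 each). Its fitted value was 0.41 ± 0.24 (edgeR adjusted p = 0.730), with 5 of 6 animals higher and overlapping times.

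HNRNPUL1, a nuclear protein of the SAP family (0.38 ± 0.23, adjusted p = 0.735), and HNRNPA3, a relative of HNRNPA2B1 (0.29 ± 0.19, adjusted p = 0.764), were the 2 of the 60 genes higher in 6 of 6 animals. HNRNPA3 ran from 66.6 to 94.6 CPM post-induction, against 53.1 to 73.6 CPM at baseline. Among all genes 2.67% were higher in 6 of 6. By contrast 9 of the 60 were lower in 6 of 6, against 3.74% of all genes, namely SRSF5, SRSF6, SRSF7, SRSF8, HNRNPAB, HNRNPF, HNRNPU, U2AF1 and SF3B1. For 5 of them (SRSF6, SRSF7, HNRNPAB, HNRNPF and U2AF1) the 6 post-induction libraries lay below the 6 baseline libraries, against 0.849% of all genes. The reverse was seen in 0 of the 60, against 0.142% of all genes.

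HNRNPA1, an antagonist of SR proteins at exons, was fitted at 0.32 ± 0.27 and HNRNPK, which binds C-rich tracts, at 0.18 ± 0.29, each higher in 4 of 6 animals. HNRNPC, which binds U-rich tracts, was fitted at -0.10 ± 0.32 and lower in 4 of 6. HNRNPU, a nuclear scaffold protein, was fitted at -0.21 ± 0.20 and lower in 6 of 6. The 6 post-induction libraries had medians of 17.5, 12.8, 21.2 and 19.3 CPM for HNRNPA1, HNRNPK, HNRNPC and HNRNPU, against 13.5, 11.7, 28.8 and 22.6 CPM at baseline. Times overlapped for all 4 genes. HNRNPA1 has many processed copies in primate genomes, so its count is uncertain.

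U2AF1, the small U2AF subunit that reads the AG at the end of the intron, is on the plus strand of chromosome 3, positions 3579123 to 3593758 (ENSMMUG00000022769). It had 21.1, 28.5 and 21.8 CPM in VHD post-induction livers, against 34.2, 32.6 and 60.02 CPM in VHD baseline livers. LD livers had 22.0, 27.9 and 25.2 CPM post-induction, against 36.7, 41.0 and 43.0 CPM at baseline. The times did not overlap, with a fitted value of -0.76 ± 0.21 (1.69-fold lower, edgeR adjusted p = 0.255).

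The large subunit U2AF2, which binds the pyrimidine tract, went the other way in its estimate, at 0.17 ± 0.47. It had 2.35, 0.876 and 3.88 CPM in VHD post-induction livers, against 1.76, 6.71 and 1.44 CPM in VHD baseline livers. LD livers had 1.96, 5.82 and 3.93 CPM post-induction, against 3.11, 2.02 and 1.65 CPM at baseline. These ranges overlap in both classes. U2AF1L4, a relative of U2AF1, was at or below 1.33 CPM in all 12 libraries (-0.23 ± 0.51).

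In the U2 snRNP, SF3B1, the subunit next to the branch point and the target of splicing inhibitors, had 105, 72.3 and 76.2 CPM in VHD post-induction livers, against 158, 118 and 83.9 CPM in VHD baseline livers. LD livers had 126, 87.0 and 88.5 CPM post-induction, against 155, 156 and 131 CPM at baseline. The LD times did not overlap, the VHD times did, and 6 of 6 animals were lower (-0.53 ± 0.22, edgeR adjusted p = 0.571).

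SF3A3, a subunit of the SF3A complex, was fitted at -0.44 ± 0.21 (adjusted p = 0.639), with 5 of 6 animals lower. Its post-induction libraries ran from 20.8 to 33.2 CPM with a median of 23.3 CPM, against 29.3 to 41.5 CPM with a median of 31.1 CPM at baseline. The other 6 SF3 subunits lay between -0.23 (SF3A2) and 0.27 (SF3B4).

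The 12 PRPF proteins were split into 7 negative and 5 positive, from -0.40 (PRPF38A) to 0.29 (PRPF31). PRPF8, the largest protein of the spliceosome core, was fitted at 0.04 ± 0.21, with 3 of 6 animals higher. It averaged 90.4 ± 22.4 CPM in VHD post-induction livers and 78.7 ± 0.306 CPM in VHD baseline livers (SD, n = 3 each). In LD livers it averaged 78.7 ± 21.6 CPM post-induction and 85.1 ± 4.58 CPM at baseline (SD, n = 3 each). In both classes the baseline mean lay within the range of the post-induction libraries.

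SNRPB, an Sm ring protein, was fitted at -0.32 ± 0.26 with 5 of 6 animals lower, and its near-identical paralogue SNRPN, an imprinted gene, at 0.09 ± 0.22 with 3 of 6 lower. SNRPB had a median of 26.0 CPM over post-induction libraries, against 36.4 CPM over baseline libraries. SNRPN had a median of 24.4 CPM post-induction, against 21.4 CPM at baseline. Reads shared by SNRPB and SNRPN make the division between them uncertain, as do those shared by the paired identifiers of SNRPC and of SNRPD2. The other Sm ring genes (SNRPD2, SNRPD3 and SNRPE) and the U1 genes SNRPA and SNRPC had fitted values from -0.14 to 0.27.

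**Figure D3:**
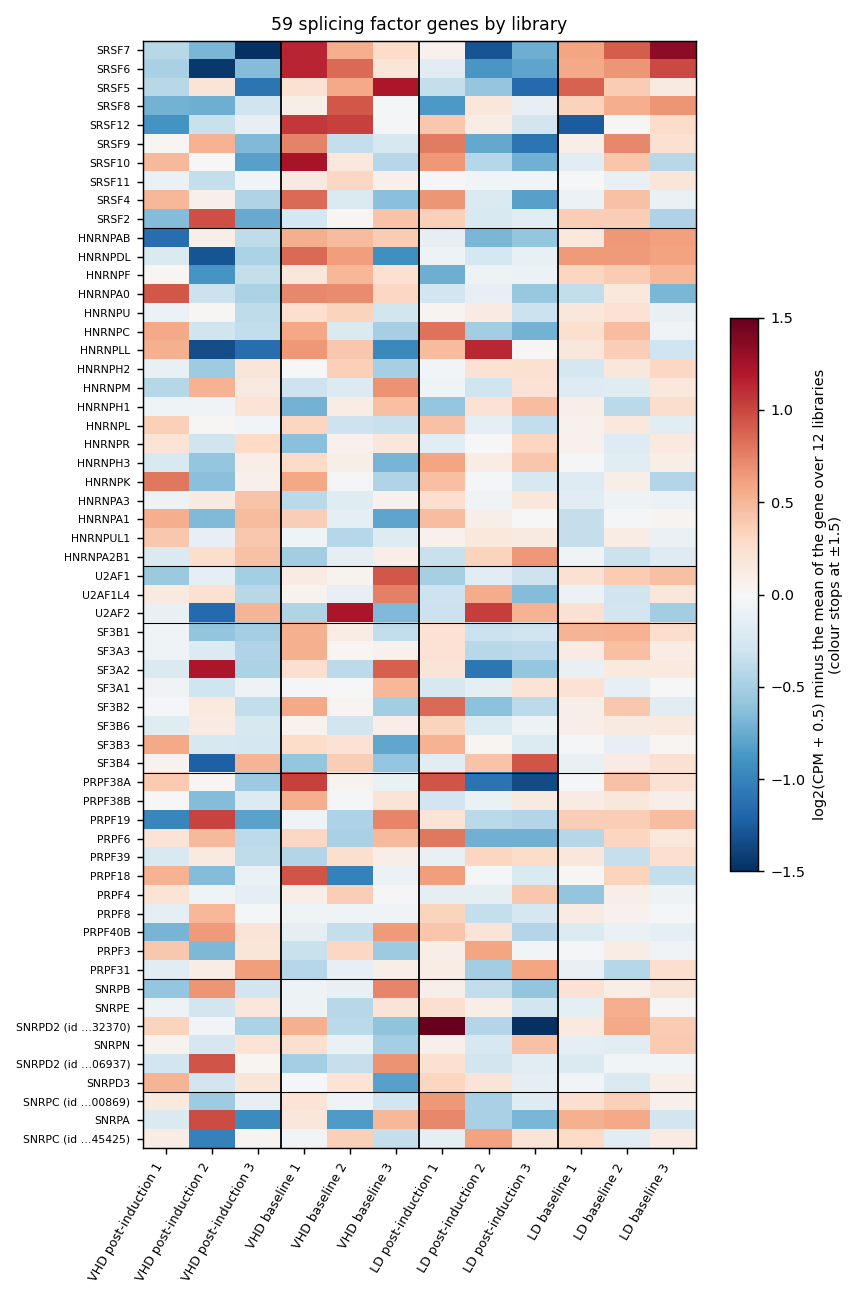
Level of 59 of the 60 genes in each of the 12 libraries, as log2(CPM + 0.5) minus the mean of the gene, in columns by group and in rows by role, with red above and blue below the mean. The rows of SRSF5, SRSF6, SRSF7 and SRSF8 are mostly blue post-induction and red at baseline, while most other rows vary between libraries within a group.

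DESeq2 called 6 of the 60 genes in the mean response, all lower, where it called 1.13% of all genes lower and 0.419% higher. They were SRSF6 (DESeq2 adjusted p = 3.0e-05), SRSF7 (0.00074), SRSF5 (0.0154), HNRNPAB (0.0266), U2AF1 (0.0413) and SRSF8 (0.0427). These are the 6 genes with the smallest p in edgeR too. With component 1 as a term, edgeR called 3 of the 60, SRSF6, SRSF7 (adjusted p = 0.0381) and SRSF8 (0.0194). Calls also rose among all 18373 genes, to 108 (88 lower) with that term from 49 (46 lower) without it.

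Within each class the question was the response of its 3 animals, with the spread estimated from all 12 libraries. In VHD livers edgeR called 0 of the 60 genes, as in 0 of all genes, and DESeq2 called 1, SRSF6 (adjusted p = 0.0131), where it called 0.327% of all genes lower. At an unadjusted p under 0.05 in edgeR 8 of the 60 (13.3%) were lower, against 2.22% of all genes, and 0 were higher, against 1.22%. In LD livers edgeR and DESeq2 each called 0 of the 60, where edgeR called 0 of all genes and DESeq2 0.256% lower. In edgeR 5 (8.33%) were lower at an unadjusted p under 0.05, against 2.37% of all genes, and 0 were higher, against 3.33% (5.7% of all genes in either direction).

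SRSF6 and SRSF7 had the smallest p of the 60 genes in both classes. SRSF6 was fitted at -1.61 ± 0.36 in VHD (edgeR adjusted p = 0.481) and -1.34 ± 0.36 in LD (0.703). SRSF7 was fitted at -1.64 ± 0.46 in VHD (0.746) and -1.59 ± 0.46 in LD (0.768). Next by p came SRSF8 in VHD (-0.98 ± 0.35) and SRSF5 in LD (-1.17 ± 0.40). All 10 SR proteins were negative in VHD and 9 in LD, with medians of -0.77 and -0.32. The median over the 60 genes was -0.12 in VHD and -0.05 in LD, beside 0.03 and 0.08 over all genes.

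The animals were not alike. LD1 had a positive median change over the 60 genes (0.20, 25 lower), while the other 5 had negative ones: -0.13 (40 lower) in VHD1, -0.21 (37) in VHD2, -0.12 (35) in VHD3, -0.28 (40) in LD2 and -0.23 (38) in LD3. For SRSF6 the change in log2(CPM + 0.5) was -1.62, -2.29 and -0.83 in VHD1, VHD2 and VHD3, and -0.72, -1.53 and -1.78 in LD1, LD2 and LD3. SRSF6 was thus lower in LD1 too, by the smallest step of the 6 animals.

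The difference between the responses (VHD minus LD) was tested directly. In edgeR 0 of the 60 genes passed, as did 0 of all genes. Of the 60, 0 had an unadjusted p under 0.05 (1.3% of all genes did, 1.09% on the negative side). DESeq2 called 0 of the 60, beside 0.00544% of all genes. SRSF12 had the smallest p, at -2.19 ± 1.10 (adjusted p = 1.00), from 0.138, 0.438 and 0.586 CPM in VHD post-induction livers, against 1.97, 1.91 and 0.667 CPM in VHD baseline livers. LD livers had 1.0598, 0.776 and 0.479 CPM of SRSF12 post-induction, against 0, 0.696 and 0.934 CPM at baseline. Most of these levels were near or below 1 CPM.

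HNRNPLL, which is known for CD45 splicing in T cells, had a difference of -1.15 ± 0.79, and U2AF2 of -1.29 ± 0.95 (each adjusted p = 1.00). HNRNPLL stood at 15.04, 3.78 and 4.38 CPM in VHD post-induction livers, against 16.4, 13.7 and 4.999 CPM in VHD baseline livers. In LD livers it stood at 14.5, 23.1 and 10.4 CPM post-induction, against 11.6, 13.5 and 8.26 CPM at baseline. It was lower in 3 of 3 VHD animals and higher in 3 of 3 LD animals, as were 0.664% of all genes, with 1 large step, in VHD2. The U2AF2 difference was -0.23 without VHD baseline 2.

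The study also set VHD livers against LD livers at each time. At baseline edgeR called 0 of the 60 genes and DESeq2 0, and 0 had an unadjusted p under 0.05. Among all genes edgeR and DESeq2 each called 0.00544% at baseline, and 1.86% had an unadjusted p under 0.05 in edgeR (0.425% lower and 1.43% higher in VHD). Post-induction edgeR called 0 of the 60 and DESeq2 0, beside 0 and 0.00544% of all genes. Again 0 of the 60 had an unadjusted p under 0.05, against 2.44% of all genes. Median log2 fold changes over the 60 were -0.03 at baseline, beside 0.07 over all genes, and -0.07 post-induction, beside -0.01 over all genes.

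HNRNPA0, a small intronless hnRNP gene, had the smallest p at baseline, with 4.24, 4.19 and 3.07 CPM in VHD livers, against 1.73, 2.72 and 1.29 CPM in LD livers. The fitted difference was 0.98 ± 0.49 (edgeR adjusted p = 1.00). SRSF12 came next (1.301 ± 0.77). Post-induction the smallest p were those of HNRNPLL (-1.08 ± 0.56, but -1.98 without VHD post-induction 1 and -0.72 without LD post-induction 2), HNRNPH3, a relative of HNRNPH1 (-0.65 ± 0.37), and SF3A2 (0.83 ± 0.52). The SF3A2 difference rested on VHD post-induction 2 and was 0.04 without it.

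VHD post-induction 2 and VHD baseline 3, the libraries that stood apart on the genes other than the 60, also stood apart on some of the 60. Their levels were both above the other 10 libraries for 7 genes (11.7%, against 8.53% of all genes) and both below them for 10 (16.7%, against 7.77%). These libraries come from different animals and different times. The 7 high genes were SNRPB, SNRPD2 (ENSMMUG00000006937), SF3A2, PRPF19, PRPF40B, SRSF2 and HNRNPM. The 10 low genes were HNRNPA1, HNRNPDL, HNRNPH2, HNRNPH3, HNRNPK, U2AF2, PRPF3, SNRPD3, SNRPN and SNRPC (ENSMMUG00000045425).

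PRPF19, the ubiquitin ligase of the PRP19 complex, had 54.6 CPM in VHD post-induction 2 and 45.1 CPM in VHD baseline 3, against 13.4 to 37.2 CPM in the other 10. SF3A2 had 17.2 and 13.7 CPM in that pair, against 3.10 to 8.59 CPM in the other 10. HNRNPA1 had 8.82 and 8.04 CPM in the pair, against 11.1 to 21.1 CPM in the rest.

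**Figure D4:**
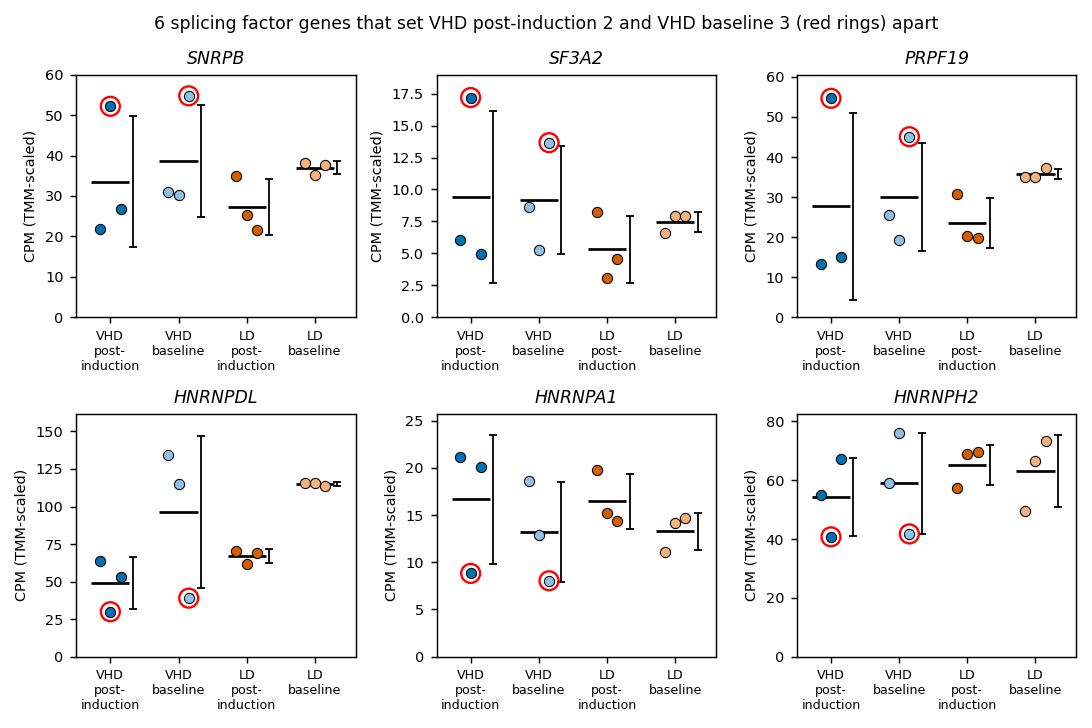
CPM by group of 3 genes high (top row) and 3 genes low (bottom row) in VHD post-induction 2 and VHD baseline 3, which are ringed in red, with 1 point per library, a bar at the group mean and the SD beside it. The ringed points lie outside the range of the other 10 libraries in each panel, for example 8.82 and 8.04 CPM for HNRNPA1 against 11.1 to 21.1 CPM.

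Along component 1, 4 of the 60 genes (PRPF19, SF3A2, SF3B6 and SNRPB) were lower in all 5 libraries of the positive side than in the other 7, against 3.4% of all genes, and 0 were higher, against 3.76%. VHD baseline 2 is on the positive side and VHD post-induction 2 is not, so only genes higher post-induction in VHD2 could be among these 4. The 9 genes with an unadjusted p under 0.05 in the mean response were all lower in VHD2 and could not be among them. Of the 4, SNRPB (-0.32) and SF3A2 (-0.23) had negative fitted values in the mean response.

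Since many of these genes are known to control their own transcripts, the use of transcripts within a gene was tested where at least 2 passed the filter, in 28 of the 60 genes and 5817 genes in all. Only annotated transcripts were counted, and which of them carry a premature stop was not examined, so self-control itself was not tested. With limma's diffSplice, 0 of the 28 passed an adjusted p of 0.05 in any of the 6 comparisons. Among all genes tested for it, 0.0172% passed in the mean response, 0.0172% in the VHD response and 0 in the other comparisons. In the mean response 2 of the 28 (7.14%) had an unadjusted p under 0.05, against 6.21% of all genes. They were SNRPC (ENSMMUG00000000869), a zinc-finger protein of the U1 snRNP (limma adjusted p = 0.503), and SRSF4 (0.503), followed by HNRNPUL1 (0.777).

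For SNRPC, transcript ENSMMUT00000001240 took 40.2, 40.1 and 66.7% of the gene's count in VHD post-induction livers, against 76.7, 76.3 and 4.45% in VHD baseline livers. In LD livers it took 67.0, 98.4 and 98.7% post-induction, against 51.5, 24.4 and 10.7% at baseline. The share was higher post-induction in all 3 LD animals, while the VHD times overlapped. Both SNRPC transcripts end at 35654109 on the plus strand of chromosome 4, and they start at 35638479 and 35638769.

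For SRSF4 the transcript ENSMMUT00000064790 took 31.99% of the summed count of the 6 post-induction libraries, against 12.2% at baseline. Single libraries ran from 12.3 to 59.998% post-induction, with VHD baseline 1 at 36.6%, so the times overlapped.

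Among the annotated transcripts, the same 1 took nearly all of the SRSF6 count throughout. ENSMMUT00000044929 took 95.1 to 100% of the SRSF6 count in every library, with 98.2% over the post-induction libraries and 97.3% over the baseline libraries. SRSF5 likewise came almost wholly from ENSMMUT00000031518, with 97.1 to 99.9%. For SRSF7 the transcript ENSMMUT00000015408 took 76.2% of the summed count post-induction, against 61.2% at baseline. ENSMMUT00000059930, a short SRSF7 model from 39226660 to 39227171, took 17.2% post-induction, against 27.2% at baseline (SRSF7 limma adjusted p = 0.847). Both SRSF7 shares overlapped between the times.

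**Figure D5:**
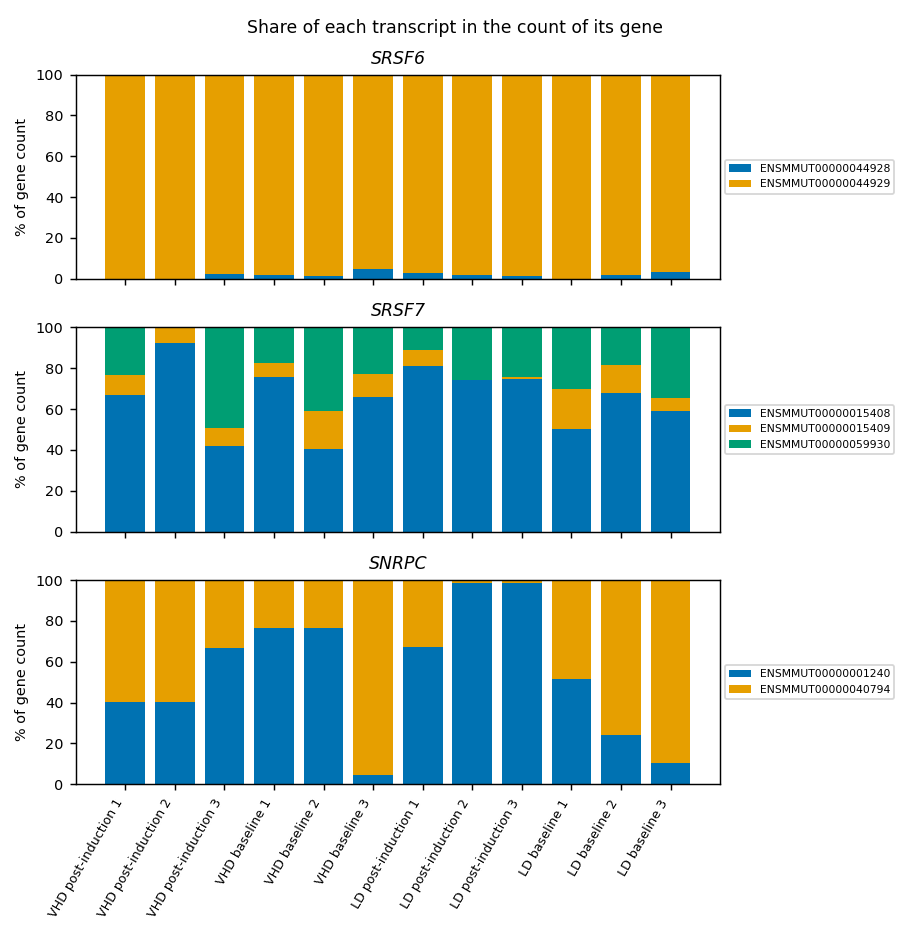
Share of each transcript in the count of SRSF6, SRSF7 and SNRPC (ENSMMUG00000000869), in percent, as stacked bars for the 12 libraries. SRSF6 is nearly all ENSMMUT00000044929 in every bar, whereas the SNRPC transcripts range from 4.45 to 98.7% and 1.31 to 95.55%.

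Other genes of the splicing machinery were read from lists chosen by function, in the mean response of edgeR. Of 11 splicing RNA helicases, 10 were negative (median -0.43), 1 was called and 4 had an unadjusted p under 0.05, all lower. The called gene was DDX5, which unwinds RNA in the spliceosome and acts with transcription factors. It had 122, 105 and 141 CPM in VHD post-induction livers, against 412, 315 and 291 CPM in VHD baseline livers. LD livers had 151 (LD1), 120.2 (LD2) and 121 (LD3) CPM post-induction, against 369, 412 and 368 CPM at baseline. No time overlapped, and DDX5 fell by 1.51 on the log2 scale (± 0.21 SE, adjusted p = 0.0246) in 6 of 6 animals. The DDX5 call was lost with a term for the animal (edgeR adjusted p = 0.0801) and without any 1 of 6 libraries. Leaving out VHD post-induction 1 or 3 gave adjusted p of 0.0649 and 0.0573 for DDX5, and leaving out VHD baseline 1 gave 0.0505. In LD the adjusted p was 0.0936 and 0.0609 when post-induction 2 or 3 was dropped, and 0.0772 when baseline 3 was.

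The other lists held 0 called genes. Of 11 LSm and snRNP assembly genes tested, 9 were negative, led by DDX20, the Gemin3 helicase of the SMN complex (-0.97 ± 0.20, adjusted p = 0.0693), and GEMIN4 (-0.51 ± 0.26). DDX20 ran from 6.71 to 9.24 CPM post-induction, against 13.9 to 18.5 CPM at baseline, without overlap. Of 32 other snRNP and spliceosome core genes, 25 were negative (median -0.16), led by PLRG1 of the PRP19 complex (-0.60 ± 0.21, adjusted p = 0.415) and RBM17 (-0.51 ± 0.21, adjusted p = 0.571).

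Of 12 SR-related and exon junction genes, 9 were negative (median -0.32), led by TRA2B, an SR-like exon activator (-0.67 ± 0.19, adjusted p = 0.264), and RBM39 (-0.41 ± 0.22). Of 7 SR protein kinases, 6 were negative but small (median -0.07), with DYRK1A at -0.40 ± 0.21 and SRPK1 at 0.27 ± 0.20. Of 26 other splicing regulators, 12 were negative and 14 positive. PSPC1, a paraspeckle protein, was fitted at 1.77 ± 0.56 (adjusted p = 0.340), with 4 animals higher and 2 lower. TIAL1 was fitted at -0.47 ± 0.23, with 6 of 6 animals lower. Of 9 genes of nonsense-mediated decay, 4 were negative and 5 positive, with UPF2, which takes part in marking transcripts for decay, at 0.24 ± 0.21.

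Marker genes of liver cell types were read beside these results. The 9 hepatocyte markers found summed to 137785 to 239497 CPM post-induction, against 120388 to 230916 CPM at baseline. No marker of the 9 lists passed the threshold in the mean response. The summed levels overlapped between the times for all lists, as for macrophages (42.8 to 93.4 CPM post-induction, against 41.4 to 101 CPM at baseline, 6 of 8 markers found) and endothelial cells (73.3 to 166 CPM, against 72.3 to 152 CPM, 5 of 6 found).

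Neutrophil markers (4 of 5 found) summed to 4.82 to 10.4 CPM post-induction, against 5.19 to 27.1 CPM at baseline, with 2 of them negative and 2 positive in the mean response. S100A8 was fitted at -1.97 ± 0.40 (adjusted p = 0.0693, 6 of 6 animals lower), S100A9 at -1.22 ± 0.67 (5 of 6 lower), MPO at 0.64 ± 0.43 (5 of 6 higher) and CSF3R at 0.31 ± 0.40 (4 of 6 higher). All 4 erythrocyte markers found of 7 were positive, and their sum was 4.56 to 10.6 CPM post-induction, against 1.86 to 7.82 CPM at baseline. The part of neutrophil and red cell RNA in the SRSF6 result was not tested. In the response difference all macrophage, T and NK cell and neutrophil markers tested were negative (medians -0.71, -0.86 and -0.76). All B and plasma cell markers were positive (0.89). At baseline the macrophage, T and NK cell, neutrophil and erythrocyte markers were all higher in VHD, and the stellate and fibroblast markers all lower. The other lists were mixed in each, and 0 markers were called. The part of these cells in the HNRNPLL difference was not tested.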

How the data were processed

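Liver RNA of 12 biopsies from 6 macaques was analysed. The authors deposited expected counts per Ensembl transcript, of which 40.1% were whole numbers. The submitters' processing notes list the tools Bowtie, BWA and Partek, and Mmul_8.0.1 as genome build. Not given in the sources used here are tool versions, strand and the treatment of reads with several matches. A start position may differ by 1 base.

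Transcripts were summed per gene identifier and rounded. Low counts were removed with filterByExpr, leaving 18373 genes. In R 4.3.3, edgeR 4.0.16 (TMM, 4 group means, robust quasi-likelihood F test, Benjamini-Hochberg over all genes, threshold 0.05) gave each comparison. The SE is the log2 fold change over the square root of F. Transcript use was tested with limma 3.58.1 (voom, diffSplice, Simes p per gene). The model treats libraries as independent. The title numbers name animals and so pair the times, but the main fit and DESeq2 left this pairing out. Fitting animals as blocks was an alternative, and with it SRSF6 was not called. Deviations of paired libraries from their group means correlated over genes from -0.35 to 0.41. These correlations cannot show whether single genes differ between animals. For the class differences the block was the title number instead, which joins different animals. Other alternatives were DESeq2 1.42.0, RLE factors, other filters, component 1 as a term, the compared groups alone, and left-out libraries.

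Members, lists and alternatives were chosen with earlier results of these data known. Named genes are those called, those with the smallest p per comparison (8 in the mean response, 3 in the others) and a panel. SRSF1, SRSF3 and PRPF4B of the panel were not analysed here. Some values are not reported here. Further genes were named after their values were seen, to complete small counts. The scripts were tested on simulated data.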

Additional observations from a re-analysis of the deposited data

Results flagged for a closer look

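HNRNPLL was higher post-induction in 3 of 3 LD animals and lower in 3 of 3 VHD animals. The difference between these responses, VHD minus LD, was -1.15 ± 0.79 SE on the log2 scale (edgeR's quasi-likelihood test, adjusted p = 1.00), so the interaction test did not pass. Changes in log2(CPM + 0.5) were -0.12, -1.73 and -0.17 in VHD1, VHD2 and VHD3, and 0.31, 0.76 and 0.32 in LD1, LD2 and LD3. Of the 60 genes 1 had these signs, and of all genes 0.664%. The estimate ranged from -2.04 to -0.79 when single libraries were left out.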

How the results depend on the processing

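The count of genes called in the mean response, 1 in edgeR, was 6 with DESeq2, 0 with the replicate block (a term for the animal), 3 with component 1 as a term and 0 to 2 with single libraries left out. It was 1 with RLE factors, both other filters, and when VHD post-induction 2 and VHD baseline 3 were both left out. Over all genes, 49 were called in the main fit, 284 with DESeq2 and 4 with the replicate block. With component 1 as a term 108 of all genes were called, and 0 to 71 with single libraries left out. The cause of these shifts was not tested. In the VHD response DESeq2 called 1. The replicate block, which was a term for the title number in the class differences, changed no other call. Counts of called genes in the LD response, the response difference and both class differences, and all counts for transcript use, were 0 under every alternative run. The median over the 60 genes in the mean response (-0.07) ranged from -0.20 to -0.035 with single libraries left out and was -0.015 with component 1 as a term. That in the VHD response (-0.12) was -0.22 without that pair, and -0.25 to -0.054 with single libraries left out. That of the baseline class difference ranged from -0.12 to -0.0086, and that of the post-induction class difference from -0.16 to 0.11. Estimates near 0 changed sign. With component 1 as a term SRSF2 was 0.10, HNRNPC 0.16 and U2AF2 -0.38, and PRPF8 was -0.067 without that pair. With single libraries left out SRSF2 ranged from -0.51 to 0.070, HNRNPC from -0.44 to 0.091, HNRNPK from -0.039 to 0.34, PRPF8 from -0.083 to 0.11, SNRPN from -0.048 to 0.19 and U2AF2 from -0.19 to 0.61. In the mean response 28 of the 60 genes kept their direction under all alternatives. With 3 libraries per group and levels near 1 CPM, SRSF12 and U2AF1L4 could show only large differences.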
